A study of Homo sapiens with 24 samples.

Results

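The Notch receptors, ligands and targets examined here were 10 genes, namely the receptors NOTCH1, NOTCH2, NOTCH3 and NOTCH4, the ligands JAG1, JAG2 and DLL1, and the target genes HES1, HEY1 and HEY2. They were chosen by symbol, and all 10 were found among the 13397 gene symbols that were listed in each of the 4 tables of the series. RNA-Seq of polyadenylated RNA was performed on 24 libraries from 3 established triple-negative breast cancer (TNBC) cell lines, with 3 replicates in each of 8 conditions. Breast cancer stem cells (BCSCs), sorted as CD24-CD44+ and ALDH+, were compared with non-BCSCs, which lacked both features, in wild-type Hs578T, a mesenchymal-like line, and in wild-type HCC70, a basal epithelial line. MDA-MB-231 cells, also mesenchymal-like, carried a control sgRNA (sgCtrl) or an sgRNA against KIF20A (KIF20A sg) in the depletion experiment, and an empty vector (EV) or a KIF20A vector (KIF20A OE) in the overexpression experiment. The labels called the depleted cells a knockdown. KIF20A, a kinesin that moves along microtubules during cell division, was the gene that the study manipulated. Each experiment carried its own batch label, so differences between experiments, and between the lines Hs578T and HCC70, cannot be told apart from batch.

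Notch signaling passes between neighboring cells. A ligand of the Jagged or Delta-like family on 1 cell binds a Notch receptor on the next, the receptor is cut by an ADAM protease and then by γ-secretase, and its intracellular domain enters the nucleus, where it joins the DNA-binding protein RBPJ and a Mastermind coactivator. Genes of the HES and HEY families of transcriptional repressors are the best known direct targets. In the mammary gland Notch takes part in the choice of luminal fate, and it has long been studied in BCSCs and in TNBC.

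The 4 tables differed in unit. Values for Hs578T and HCC70 were TPM, which are divided by transcript length. Values for the depletion experiment were reads divided by 1 factor per library, which the authors named CPM, and those for the overexpression experiment were CPM, reads scaled to the same total in every library, both without a length term. Whole reads behind the values were recovered, and the depth ranged from 28402681 to 33973164 per Hs578T library, from 24983606 to 33985436 per HCC70 library, from 41424338 to 51018667 per library of the depletion experiment and from 15971297 to 22182293 per library of the overexpression experiment. A gene was tested when its mean over the 6 libraries of a comparison was at least 1, by limma on log2(value + 1), and was called at a Benjamini-Hochberg adjusted p under 0.05 over all genes tested. Fold changes of low genes are understated on this scale. Nothing in the labels says whether replicates came from separate cultures beyond calling them biological triplicates, so p-values measure the spread between these libraries, which may be technical.

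Lineage markers and KIF20A checked the labels. In Hs578T the 6 mesenchymal markers VIM, CD44, AXL, CAV1, ZEB1 and CDH2 summed to 5544 to 5959 TPM and 5 basal epithelial markers that were listed to 1.56 to 2.48, whereas in HCC70 the 4 listed mesenchymal markers summed to 304 to 341 TPM and 6 basal epithelial markers to 8316 to 9441. KIF20A was 217 TPM ± 2.54 (SD, n = 3) in Hs578T non-BCSCs and 297 ± 25.6 in BCSCs, and 71.4 ± 2.69 and 125 ± 3.48 in HCC70. In the depletion experiment it was 153, 173 and 156 in the sgCtrl libraries and 122, 145 and 91.1 in the KIF20A sg libraries. The groups did not overlap, but the difference of -0.45 (log2, SE 0.16) did not pass the limma test (adjusted p = 0.69). In the overexpression experiment KIF20A was 101, 143 and 124 CPM with EV and 1348, 269 and 896 in the libraries labelled KIF20A OE. These 3 libraries stood apart from every other library and went against their cell line label. CD44, a surface receptor for hyaluronan, was 642 CPM on average with EV and 0.557 in them, and IRS4, an insulin receptor substrate known from embryonic kidney cells, was 0 and 1571. The summed level of the mesenchymal markers was 4704 to 5397 CPM with EV and 453 to 884 in these libraries, although 1 of the 6, CDH2 (N-cadherin), was higher in them, at 39.6 CPM compared with 0.499. A list of 6 embryonic kidney and neuronal-like genes summed to 15.4 to 26.1 and 1393 to 1944, respectively. IRS4 made up most of the latter sum, and PAX8, a kidney gene of the same list, made up nearly all of the former and went the other way, from 19.3 CPM with EV to 0.42. Each Notch value from these 3 libraries is therefore a value of libraries labelled KIF20A OE. The libraries differed from EV both in KIF20A and in these markers, and which of these the Notch differences go with cannot be told apart.

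To compare members with each other, the recovered reads were divided by gene length and scaled to a total of 1000000 over the genes shared by the tables, here called the length-adjusted level. The lengths were those implied by the TPM tables. That for NOTCH4, at chromosome 6:32194843-32224067 in GRCh38, was 6.18 times its GENCODE length relative to the median gene, while those for the other 9 members were 0.572 to 1.35 times. Of 140 genes from HLA-F to HLA-DPB1 on chromosome 6 (29722775-33089696), a region that holds NOTCH4, 92.1% had a ratio of at least 3, compared with 0.841% of the other genes. The deposited TPM of NOTCH4 was therefore divided by a length several times that of the gene, and the GENCODE length was used for its length-adjusted level. Whether reads of NOTCH4 were also lost in the sorted lines was not tested.

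**Figure D1:**
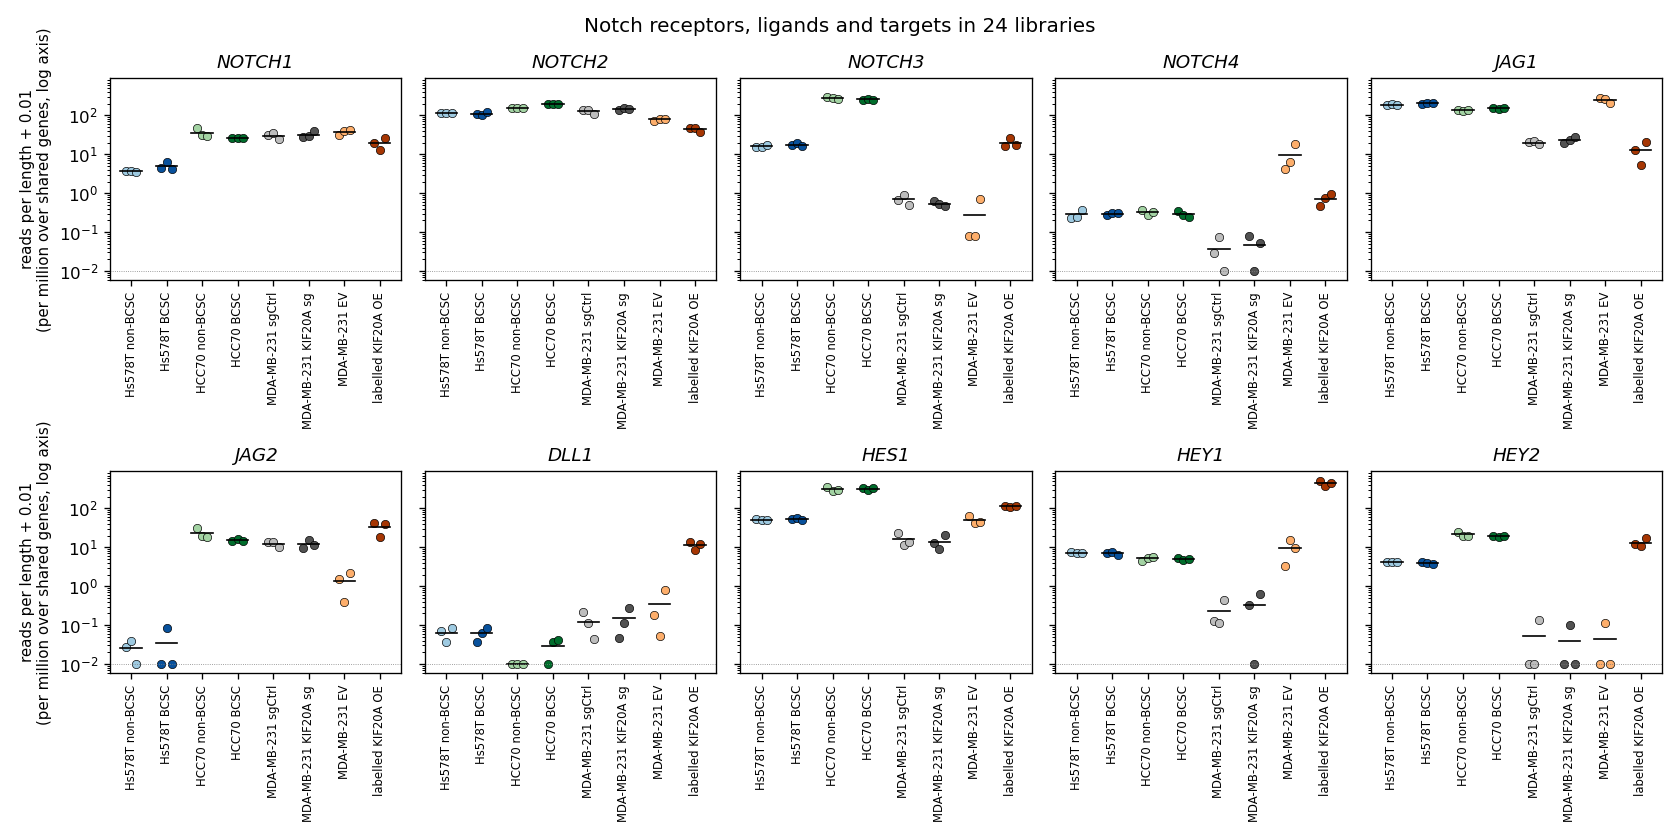
Length-adjusted level of the 10 genes in each of 24 libraries (points) with the mean of 3 replicates (bars), on a log axis after adding 0.01. NOTCH2 was at 38.1 or above in every library, NOTCH3 and JAG2 differed widely between lines, and the libraries labelled KIF20A OE were the only ones in which DLL1 and HEY1 reached 8.57 and 369.

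NOTCH2 was the most abundant receptor in Hs578T and MDA-MB-231, whereas NOTCH3 was the most abundant in HCC70. In Hs578T the length-adjusted level of NOTCH2 (chromosome 1:119911553-120100779) was 114 ± 0.659 in non-BCSCs and 110 ± 9.32 in BCSCs, compared with 15.9 ± 1.05 and 17.8 ± 2.01 for NOTCH3 and 3.64 ± 0.110 and 4.91 ± 1.18 for NOTCH1. NOTCH2 thus made up 85.2% ± 0.721 and 82.6% ± 3.16 of receptor reads per length. In HCC70, NOTCH3 (chromosome 19:15159038-15200995) reached 277 ± 16.8 in non-BCSCs and 258 ± 7.05 in BCSCs and held 59.1% ± 0.846 and 53.7% ± 1.15 of receptor reads per length. In MDA-MB-231 with sgCtrl, NOTCH2 held 80.5% ± 1.08 and NOTCH1 (chromosome 9:136494433-136546048) held 19.1% ± 0.984, while NOTCH3 was at 0.683 ± 0.183.

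Ordered by level over the 8 conditions, NOTCH1 was highest with EV (37.6 ± 4.96) and lowest in Hs578T non-BCSCs. Its first 5 conditions each overlapped the next in their replicates, the libraries labelled KIF20A OE came next, and Hs578T BCSCs and non-BCSCs stood below all of them. NOTCH3 fell into steps that did not overlap, with the pair of HCC70 conditions highest, then the libraries labelled KIF20A OE and both Hs578T fractions between 15.3 and 26.0, then the other MDA-MB-231 conditions at 0.867 or below. These orders are descriptions across separately processed tables, with no test.

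NOTCH4, a receptor best known from endothelium, was rare. It had 16 to 32 reads in each sorted library of Hs578T and 16 to 27 in HCC70, and 0 to 8 reads in each library of the depletion experiment. With EV it had 220, 334 and 761 reads, or 10.5, 16.1 and 44.7 CPM. A value of 0 in the depletion table allows a level of up to 0.0602 in its sgCtrl library, that of 3 reads, and these limits cover counting error only. NOTCH4 shares 98 exon bases with GPSM3 on the same strand.

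JAG1 was the main ligand in the sorted lines. Its length-adjusted level was 191 ± 1.38 in Hs578T non-BCSCs and 204 ± 4.30 in BCSCs, and 137 ± 2.70 and 153 ± 4.77 in HCC70. In Hs578T, JAG2 had 0 to 5 reads and DLL1 had 1 to 3 reads per library, so that JAG1 held 99.96% of ligand reads per length in both fractions. In HCC70, JAG2 held 14.4% ± 3.52 in non-BCSCs and 9.02% ± 0.872 in BCSCs, and DLL1 had 0 reads in 4 of 6 libraries and 1 read in the other 2. In MDA-MB-231 with sgCtrl, JAG1 held 61.6% ± 2.76 and JAG2 held 38.1% ± 2.52.

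**Figure D2:**
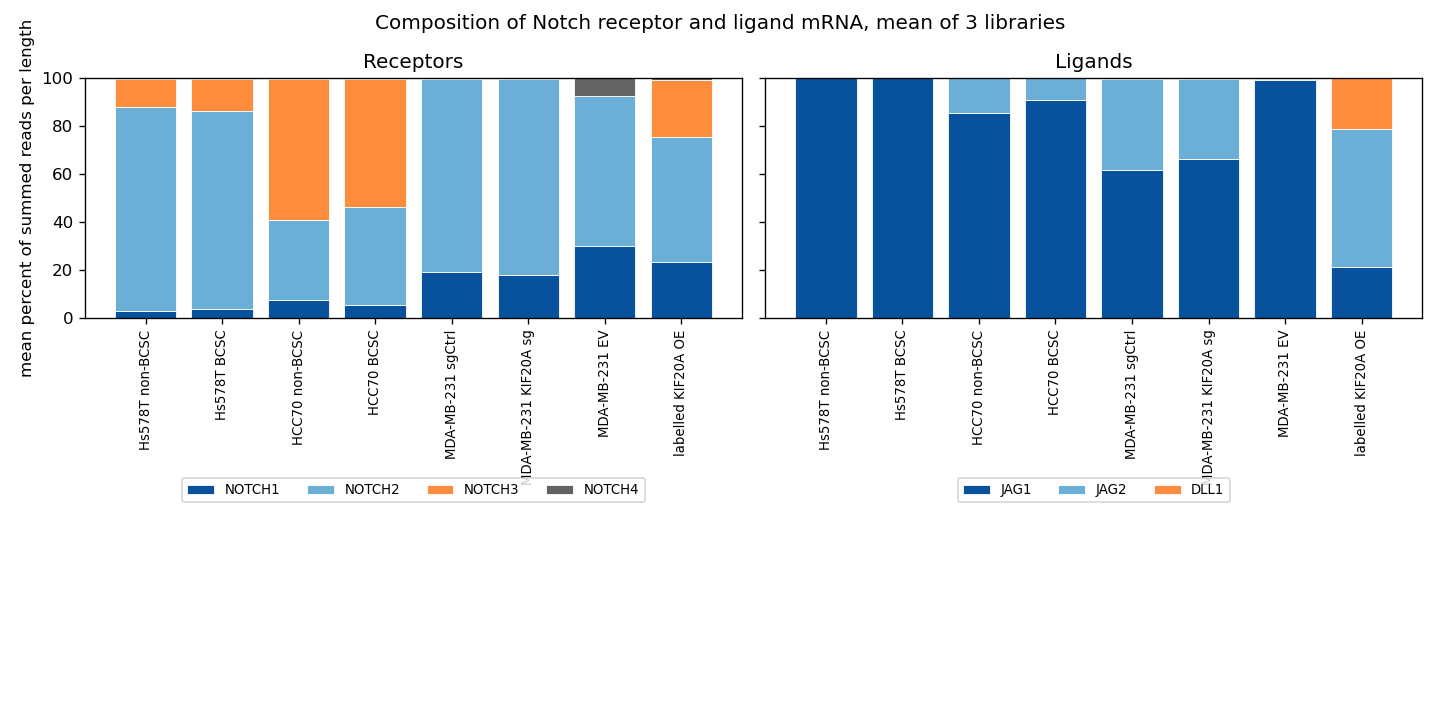
Mean percent of length-adjusted reads that each gene contributed to the 4 receptors (left) and to the 3 ligands (right), over 3 libraries per condition. NOTCH3 held 59.1% of the receptor sum in HCC70 non-BCSCs and 0.425% in sgCtrl, and DLL1 reached 21.1% of the ligand sum in the libraries labelled KIF20A OE.

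EV and sgCtrl, both control conditions of MDA-MB-231, differed in ligands, receptors and targets. JAG1 was at a length-adjusted level of 255 ± 38.6 with EV and 20.0 ± 1.92 with sgCtrl, while JAG2 was at 1.36 ± 0.904 and 12.5 ± 2.19. NOTCH4 was at 9.68 ± 7.58 and 0.0278 ± 0.0333, and NOTCH2 at 78.7 ± 4.77 and 128 ± 14.1. Of the targets, HEY1 was at 9.58 ± 6.21 and 0.218 ± 0.191, and HES1 at 49.3 ± 11.2 and 16.5 ± 6.60. For NOTCH1, NOTCH3, DLL1 and HEY2 the replicates of EV and sgCtrl overlapped. The tables were made separately and these differences were not tested.

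HES1 was the most abundant of the targets in both sorted lines, at a length-adjusted level of 51.1 ± 2.74 in Hs578T non-BCSCs and 311 ± 33.2 in HCC70 non-BCSCs. HEY1 was at 7.16 ± 0.295 and 5.17 ± 0.554, and HEY2 at 4.15 ± 0.0748 and 21.5 ± 3.29. With sgCtrl, HES1 was at 16.5 ± 6.60, while HEY1 had 4 to 18 reads and HEY2 had 0 to 6 reads per library. HEY1 and HEY2 were therefore close to the limit of detection in MDA-MB-231 of the depletion experiment.

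Sequence upstream of HES1 and HEY2 is shown because the pair are direct targets with a promoter in the RefSeq table (GRCh38.p14) that holds the core letters bound by RBPJ, TGGGAA or its reverse complement TTCCCA, in capitals. The HES1 sequence is chr3:194135898-194136167 and the HEY2 sequence chr6:125749382-125749651, both on the plus strand, from 250 bases before the annotated start.
HES1: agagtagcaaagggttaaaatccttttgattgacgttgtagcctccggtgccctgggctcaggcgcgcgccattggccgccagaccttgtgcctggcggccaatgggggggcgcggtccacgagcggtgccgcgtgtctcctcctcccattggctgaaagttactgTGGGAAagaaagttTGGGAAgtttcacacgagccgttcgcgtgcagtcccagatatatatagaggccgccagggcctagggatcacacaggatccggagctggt
HEY2: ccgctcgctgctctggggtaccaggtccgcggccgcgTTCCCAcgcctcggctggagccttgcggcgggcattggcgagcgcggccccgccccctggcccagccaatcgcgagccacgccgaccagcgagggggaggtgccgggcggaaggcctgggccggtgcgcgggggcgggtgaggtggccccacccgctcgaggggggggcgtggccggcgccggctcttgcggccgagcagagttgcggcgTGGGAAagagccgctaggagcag
In HES1 the matches to TGGGAA began 84 and 70 bases before the start. In HEY2 a match to TTCCCA began 213 bases and one to TGGGAA 3 bases before it. The letters TGGGAA occurred on either strand in 24.0% of 35116 promoters of 300 bases, 2 or more such matches in 3.80%, and the longer GTGGGAA, which overlaps it and was present once in HES1 and 2 times in HEY2, in 6.25%. The promoters of NOTCH1, NOTCH2, NOTCH3, NOTCH4, JAG1 and JAG2 held no match to TGGGAA on either strand. HEY1 and DLL1 were not searched. A match is a description of letters, not a site.

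The sort of Hs578T asked which genes distinguish BCSCs from non-BCSCs. None of the 7 members tested passed the limma test, with 7.15% of 13324 genes called. At an unadjusted p under 0.05 there were 2 members, NOTCH1 and JAG1, against 22.5% of all genes, and the same 2 were the members whose groups did not overlap, both higher in BCSCs, against 29% of all genes in either direction and 12% higher. edgeR on the recovered reads called 1, JAG1, and DESeq2 called both. The median log2 fold change of the 7 was 0.061, compared with -0.01 over all genes.

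NOTCH1 was 3.23, 3.16 and 3.04 in non-BCSCs and 3.77, 5.40 and 3.55 TPM in BCSCs. All BCSC libraries were above all non-BCSC libraries, and replicate 2 was the highest. The difference was 0.32 (log2, SE 0.13, adjusted p = 0.191), with adjusted p from 0.0149 in DESeq2 to 0.372 over its alternatives, and without BCSC replicate 2 it was 0.17. In bulk RNA a lower value may mean fewer cells with the transcript or less of it per cell, and the possibilities cannot be told apart.

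JAG1 (chromosome 20:10637684-10673999) was 164, 166 and 164 in non-BCSCs and 174, 175 and 181 TPM in BCSCs. The groups did not overlap, and the spread within each was small. The difference was 0.10 (SE 0.039, adjusted p = 0.177), a ratio of means of 1.07. It passed after scaling by the median of ratios (adjusted p = 0.0485), in edgeR (0.0426) and in DESeq2 (0.0189), the range over its alternatives being 0.0189 to 0.428.

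NOTCH2 was 99.0, 98.7 and 98.0 in non-BCSCs and 94.3, 87.0 and 103 TPM in BCSCs, so that the BCSC values lay on both sides (-0.06, SE 0.063, adjusted p = 0.639). NOTCH3 was 13.2, 13.3 and 14.8 TPM against 14.9, 17.3 and 14.0 TPM (0.15, SE 0.084, adjusted p = 0.347). HES1 was 46.9, 43.1 and 42.6 in non-BCSCs and 46.5, 48.7 and 43.1 TPM in BCSCs (0.06, SE 0.061, adjusted p = 0.607). HEY1 and HEY2 were between 5.53 and 6.48 TPM and between 3.25 and 3.66 TPM over the 6 libraries, and their groups overlapped. NOTCH4, JAG2 and DLL1 were under the minimum. ALDH1A3, an aldehyde dehydrogenase behind the ALDH sort, was 289 TPM in non-BCSCs and 706 in BCSCs (log2 difference 1.29, adjusted p = 8.39e-06). The other listed sorting markers overlapped. CD24 was 86.2 and 83.1 TPM (limma adjusted p = 0.717), and CD44 was 558 and 579 TPM (limma adjusted p = 0.507). The summed level of the stromal fibroblast markers PDGFRB, DCN and LUM was 484 to 541 TPM in non-BCSCs and 295 to 311 TPM in BCSCs, and its part in these values was not tested.

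In HCC70 the same question gave 1 called member of 8 tested, NOTCH2, with 2.83% of 13218 genes called in either direction and 2.28% called higher. NOTCH2 was 132, 136 and 136 in non-BCSCs and 171, 165 and 169 TPM in BCSCs. All BCSC libraries were above all non-BCSC libraries, and the gap between the groups exceeded the spread in either. The difference was 0.32 (SE 0.047, limma adjusted p = 0.0194), a ratio of means of 1.25. It remained between 0.29 and 0.33 in all 13 alternatives, with adjusted p from 1.59e-05 to 0.124. Among the fits with 1 library left out, the call was lost when any 1 of the 3 BCSC libraries or non-BCSC replicate 2 or 3 was left out, where adjusted p was 0.053 to 0.124. The NOTCH2NL genes resemble part of NOTCH2, and reads from the shared part can be split between them. The row listed as NOTCH2NL was 29.2 TPM on average in non-BCSCs and 29.4 TPM in BCSCs.

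Groups did not overlap for 4 of the 8 members, against 30.9% of all genes, of which NOTCH2 and JAG1 were higher in BCSCs, against 20.9%, and NOTCH1 and JAG2 lower, against 10.1%. The same 4 had an unadjusted p under 0.05, against 23.7% of all genes. The median difference of the 8 was -0.07, compared with 0.02 over all genes.

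NOTCH1 was 39.8, 27.5 and 24.9 in HCC70 non-BCSCs and 22.9, 22.2 and 22.9 TPM in BCSCs. All BCSC libraries lay below the others, and non-BCSC replicate 1 was far above the rest. The difference was -0.39 (SE 0.15, adjusted p = 0.17), and without that library it was -0.20. JAG2 (chromosome 14:105140982-105168824) was 26.6, 17.2 and 16.2 in non-BCSCs and 12.9, 14.1 and 12.2 TPM in BCSCs, with the same library highest. The difference was -0.55 (SE 0.17, adjusted p = 0.112), or -0.33 without it, and it passed only in edgeR (-0.63, adjusted p = 0.0488), the range over the alternatives being 0.0488 to 0.276. JAG2 shares 469 exon bases with an unnamed lncRNA on the same strand.

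JAG1 was 118, 116 and 120 in HCC70 non-BCSCs and 133, 128 and 136 TPM in BCSCs. The groups did not overlap, but the difference of 0.16 (SE 0.050, adjusted p = 0.108) did not pass the test. NOTCH3 was 251, 242 and 223 TPM against 216, 229 and 220 TPM, and its groups overlapped (-0.11, SE 0.060, adjusted p = 0.323).

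HES1 was 300, 247 and 258 in HCC70 non-BCSCs and 291, 258 and 285 TPM in BCSCs, values that overlapped throughout (0.05, SE 0.085, adjusted p = 0.736). HEY2 was 21.7, 16.6 and 17.3 TPM against 16.5, 15.7 and 16.7 TPM (-0.17, SE 0.10, adjusted p = 0.35). HEY1 was between 3.92 and 4.86 TPM in all 6 libraries. Of the sorting markers, ALDH1A3 was 87.3 in non-BCSCs and 98.4 TPM in BCSCs (0.17, limma adjusted p = 0.179). Its groups overlapped, as did those of CD44. ALDH1A1 was 331 and 362 TPM (0.13, limma adjusted p = 0.164), and CD24 was 857 and 692 TPM (-0.31, adjusted p = 0.0543). For ALDH1A1 and CD24 the groups did not overlap. Non-BCSC replicate 1 was also the highest of the 6 for NOTCH3, HES1 and HEY2.

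**Figure D3:**
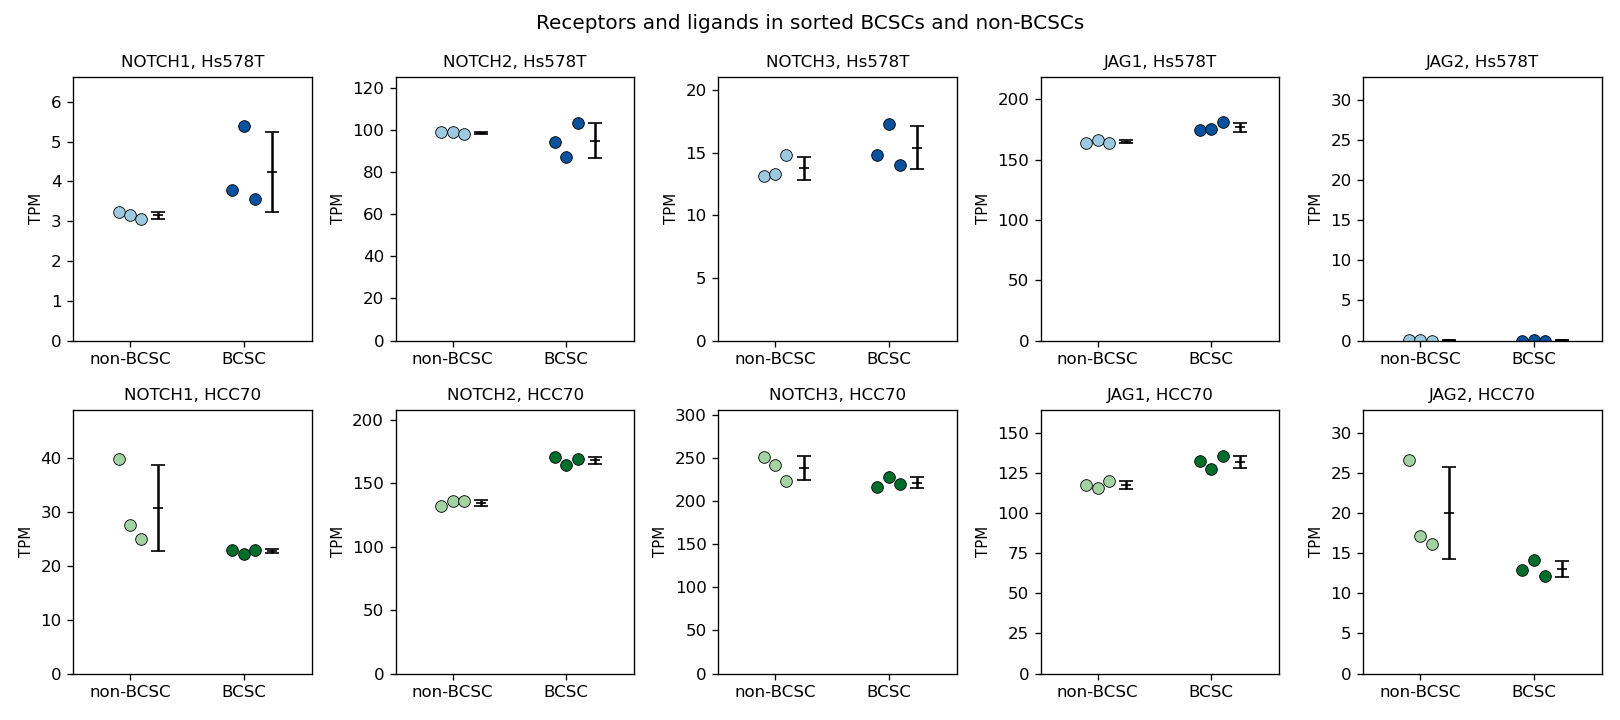
TPM of 3 receptors and 2 ligands in sorted cells of Hs578T (top) and HCC70 (bottom), 3 libraries per fraction, with mean ± SD beside them and axes starting at 0. NOTCH2 was 165 to 171 TPM in HCC70 BCSCs, above the 132 to 136 TPM of non-BCSCs, whereas non-BCSC replicate 1 stood alone for NOTCH1 (39.8 TPM) and JAG2 (26.6 TPM).

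Whether the sort differed between the lines was tested as an interaction of fraction and cell line in a limma model of the 12 sorted libraries, for the 7 members tested in both lines. NOTCH2 passed, with 7.11% of 11668 genes called. Its difference between HCC70 and Hs578T was 0.38 (log2, SE 0.078, adjusted p = 0.0169). It was not called without HCC70 BCSC replicate 1 (adjusted p = 0.052) or without Hs578T non-BCSC replicate 2 (adjusted p = 0.0513). For NOTCH1, which was higher in every BCSC library of Hs578T and lower in every one of HCC70, the difference was -0.72 (SE 0.22, adjusted p = 0.0663). The remaining members had adjusted p from 0.146, for NOTCH3, to 0.977, for HES1.

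Among 56 further genes of the pathway, 3 of 48 tested were called in each sorted line, against 7.15% of all genes in Hs578T and 2.83% in HCC70. In Hs578T, NEURL1B and MYC rose and DTX3 fell. In HCC70, NEURL1B and NCSTN rose and ID1 fell. The counts fell in some of the fits that left out 1 library, which have fewer samples. In Hs578T only NEURL1B was called without non-BCSC replicate 1, non-BCSC replicate 2 or BCSC replicate 1. In HCC70 the count was 0 without BCSC replicate 1, and only NEURL1B was called without BCSC replicate 2 or 3 or non-BCSC replicate 2 or 3. The list's median was 0.018 in Hs578T and 0.028 in HCC70, compared with -0.01 and 0.02 over all genes.

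NEURL1B, an E3 ubiquitin ligase that drives endocytosis of Notch ligands, was 13.8, 14.9 and 14.9 in Hs578T non-BCSCs and 18.9, 19.0 and 19.6 TPM in BCSCs. In HCC70 it was 18.9, 20.6 and 20.5 TPM and 30.6, 29.6 and 29.8 TPM. BCSCs were higher in every library of both lines. The differences were 0.38 (SE 0.051, limma adjusted p = 0.00565) and 0.56 (SE 0.058, adjusted p = 0.00594). It was chosen for naming as a called gene of the list.

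NCSTN, the nicastrin subunit of γ-secretase, was 120 TPM in HCC70 non-BCSCs and 145 in BCSCs (0.27, SE 0.050, adjusted p = 0.0408). ID1, an inhibitor of basic helix-loop-helix factors, was 495 and 319 TPM (-0.63, SE 0.10, adjusted p = 0.0249). In Hs578T, MYC, a transcription factor that Notch activates in some cells, was 81.0 and 95.3 TPM (0.23, SE 0.047, adjusted p = 0.0257), and DTX3, a Deltex ubiquitin ligase, was 19.4 and 16.1 TPM (-0.26, SE 0.061, adjusted p = 0.0447). No gene of the nuclear complex, RBPJ included, was called in either line. RBPJ was 69.4 and 62.7 TPM in Hs578T (-0.14, adjusted p = 0.129) and 24.0 and 23.7 TPM in HCC70.

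Depletion of KIF20A addressed whether its loss changes gene expression. By limma 0 of the 6 members tested and 0 of all 12852 genes were called, 0% of the background. At an unadjusted p under 0.05 there were 0 members and 899 genes of all, or 7%. Both edgeR and DESeq2 called 0 members, and DESeq2 called 16 genes in all. The groups overlapped for all 6, compared with 13% of all genes that did not.

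NOTCH1 was 95.6, 113 and 84.2 with sgCtrl and 85.1, 96.0 and 115 with KIF20A sg, in the values that the authors named CPM (0.02, SE 0.15, adjusted p = 0.986). NOTCH2 was 532, 566 and 472 with sgCtrl and 556, 626 and 538 with KIF20A sg (0.13, SE 0.13, adjusted p = 0.829). For both receptors the groups overlapped. NOTCH3 was 1.80, 2.48 and 1.44 with sgCtrl and 1.67, 1.41 and 1.17 with KIF20A sg, from 49 to 121 reads per library (-0.26, SE 0.20, adjusted p = 0.778).

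JAG1 was 39.7, 46.3 and 38.5 with sgCtrl and 40.4, 48.8 and 52.4 with KIF20A sg (0.18, SE 0.14, adjusted p = 0.785). JAG2 was 26.7, 27.9 and 20.7 against 18.9, 30.8 and 20.8 (-0.11, SE 0.19, adjusted p = 0.902). HES1 was 11.5, 5.94 and 7.28 with sgCtrl and 6.25, 4.40 and 9.52 with KIF20A sg (-0.27, SE 0.27, adjusted p = 0.829). In each of these ligand and target comparisons the groups overlapped. NOTCH4, DLL1, HEY1 and HEY2 had 0 to 19 reads per library and were under the minimum, so they were not tested. None of the 49 tested genes of the pathway list was called by limma, 4 had an unadjusted p under 0.05, against 7% of all genes, and the list's median was 0.004.

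All 10 members differed between the libraries labelled KIF20A OE and EV, where 69.7% of 15265 genes were called. The members moved in both directions. NOTCH3, JAG2, DLL1, HES1, HEY1 and HEY2 were higher and NOTCH1, NOTCH2, NOTCH4 and JAG1 lower, against 46.2% of all genes called higher and 23.4% called lower. The groups did not overlap for any of the 10, compared with 74.1% of all genes that did not. The median of all genes was shifted by 0.37 (log2) and fell to 0.026 after scaling by the median of ratios, where 5129 genes were called higher and 5007 lower in place of 7055 and 3579. Each of the 10 kept its direction and its call in all 13 alternatives.

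Among the receptors, NOTCH3 was 0.190, 0.193 and 1.88 CPM with EV and 48.9, 77.5 and 51.9 CPM in the KIF20A OE-labelled libraries. EV replicate 3 was the highest of its group, and all 3 EV libraries were far below the others. The difference was 5.21 (log2 of value + 1, SE 0.37, limma adjusted p = 6.48e-06). NOTCH1 was 103, 127 and 132 CPM with EV and 65.7, 44.5 and 89.9 CPM in the KIF20A OE-labelled libraries, a drop by 0.89 (SE 0.24, adjusted p = 0.00996). NOTCH2 was 298, 332 and 333 CPM and 202, 209 and 168 CPM, a drop by 0.74 (SE 0.12, adjusted p = 0.000785). Both were lower in 3 of 3 libraries, with groups that did not overlap. NOTCH4 was 10.5, 16.1 and 44.7 CPM with EV and 1.19, 1.94 and 2.57 CPM in the KIF20A OE-labelled libraries (-2.87, SE 0.47, adjusted p = 0.000762). EV replicate 3 held the highest value. Of the endothelial markers, CDH5 was 5.09 CPM with EV and 0.0417 CPM in these libraries, while PECAM1 overlapped and VWF was under 1 in every one of the 6, and their part in the NOTCH4 values was not tested.

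The main ligand differed between the groups. JAG1 was 589, 561 and 433 CPM with EV and 27.9, 12.1 and 46.1 CPM in the KIF20A OE-labelled libraries, a ratio of means of 18.4 in favor of EV (log2 difference -4.33, SE 0.40, limma adjusted p = 3.05e-05). JAG2 was 3.09, 0.773 and 4.29 CPM with EV and 92.7, 39.2 and 87.6 CPM in the others (4.36, SE 0.46, adjusted p = 6.18e-05). DLL1 (chromosome 6:170282206-170306565) was 0.190, 0.0483 and 0.882 CPM with EV, from 1 to 15 reads, and 16.9, 10.5 and 15.0 CPM in the others (3.48, SE 0.28, adjusted p = 1.37e-05). None of these groups overlapped. JAG1 fell from 99.3% ± 0.612 of ligand reads per length with EV to 21.1% ± 6.21 in the libraries labelled KIF20A OE, where JAG2 held 57.8% ± 3.61 and DLL1 21.1% ± 5.11. DLL1 shares 370 exon bases with FAM120B and JAG1 306 with an unnamed lncRNA, each on the opposite strand. The libraries were stranded, but the strand setting of the counting is not given in the sources used here.

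All 3 targets were higher in the libraries labelled KIF20A OE. HES1 was 31.1, 21.2 and 22.2 CPM with EV and 62.4, 58.9 and 61.0 CPM in them (1.28, SE 0.17, limma adjusted p = 0.000209). HEY1 was 2.67, 12.8 and 7.53 CPM with EV and 439, 314 and 385 CPM in the others, a difference of 5.64 (SE 0.42, adjusted p = 8.37e-06) and the largest among the members on this scale. HEY2 was 0, 0.0967 and 0 CPM with EV, 2 reads in all, and 11.7, 10.7 and 16.9 CPM in the others, 740 reads in all. The ratio of these counts per depth was 382, with a 95% exact binomial interval of 105 to 3162 that covers counting error only. The limma difference of 3.75 (SE 0.22, adjusted p = 2.15e-06) is smaller than that ratio because 1 was added to each value.

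**Figure D4:**
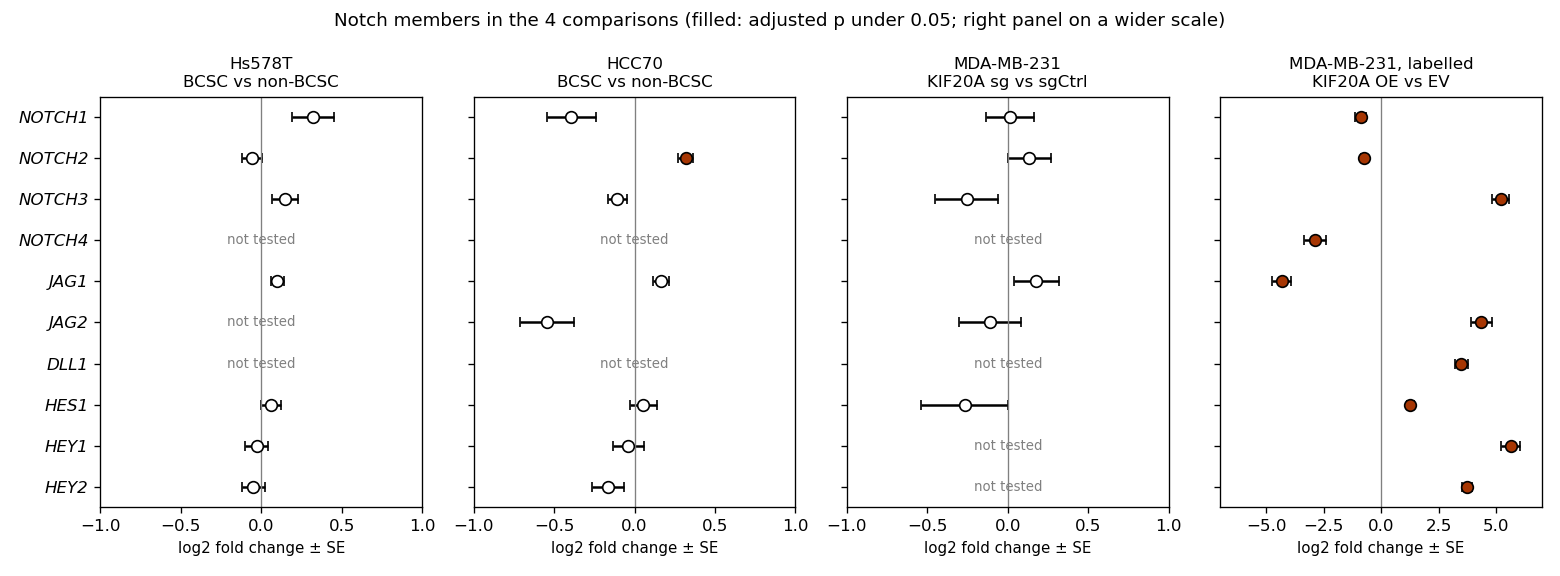
Log2 fold change ± SE by limma on log2(value + 1) of the 10 genes in each comparison, filled where adjusted p was under 0.05. Only NOTCH2 in HCC70 (0.32) was called among the first 3 comparisons, and the right panel, which spans -4.33 for JAG1 to 5.64 for HEY1, has a wider axis.

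In the pathway list, 37 of 49 genes tested were called between the libraries labelled KIF20A OE and EV, 22 higher and 15 lower, against 69.7% of all genes called, 46.2% higher and 23.4% lower, with a median of 0.037 compared with 0.37 over all genes. After scaling by the median of ratios, 34 were called, 14 higher and 20 lower, against 5129 higher and 5007 lower of 15178 genes. The 5 that rose most were the target HES4 (4.19), the feedback inhibitor NRARP (3.93), the Delta-like protein DLL3 (3.86), the target HEYL (3.31) and HES6 (2.45). The 5 that fell most were the glycosyltransferase LFNG (-5.36), the cell cycle gene CCND1 (-4.94), the coactivators MAML2 (-4.67) and MAML3 (-2.67), and ID1 (-2.61). The list counts CCND1 and ID1 as targets too. Of its 7 tested targets, 4 were called higher (HES4, HES6, HEYL and NRARP) and 2 lower (CCND1 and ID1), also after scaling by the median of ratios. NRARP, which limits Notch signaling and is itself induced by it, averaged 3.78 CPM with EV and 71.8 CPM in the others. LFNG, which alters the sugars on Notch receptors, was 172, 59.5 and 163 CPM with EV and 1.63, 2.34 and 1.82 CPM in the others.

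RBPJ, through which all 4 receptors act, was 322, 321 and 526 CPM with EV and 174, 161 and 150 CPM in the KIF20A OE-labelled libraries, a drop by 1.23 (SE 0.20, limma adjusted p = 0.000641). Of the 8 tested genes of the nuclear complex, RBPJ included, 3 were called higher and 3 lower, against 46.2% and 23.4% of all genes. With the median of ratios, 2 of them were called higher and 3 lower, against 5129 and 5007 of 15178 genes. Among the corepressors 7 were called higher, against 46.2% of all genes. After scaling by the median of ratios, only 2 were called higher, against 5129 of 15178 genes. By edgeR and by DESeq2 the same 2 were called higher, against 5099 and 5230 of 15265 genes. These were SPEN (2.36, limma adjusted p = 3.2e-06) and TLE3 (1.10, adjusted p = 0.000196). Of the 8 tested genes for processing of ligands and receptors, 1 was called higher and 3 lower, against 46.2% and 23.4% of all genes, including ADAM10, the protease that first cuts the receptor, at 176 and 60.3 CPM (-1.52, adjusted p = 1.09e-05). After scaling by the median of ratios, 0 of the 8 were called higher and 6 lower, against 5129 and 5007 of 15178 genes. ADAM10 was among the 6.

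Across the 24 libraries, values were standardized within each table, and the 3 genes most like each member were found among 6397 genes with a mean of at least 10 in every table. For JAG1 they were EGFR (Pearson r = 0.908), TNFRSF21 (0.866) and SUN1 (0.857). For NOTCH2 they were MAP4 (0.931), MYOF (0.923) and SEC24C (0.913), and for NOTCH3 they were DDX54 (0.928), NDUFS8 (0.926) and NUBP2 (0.926). For HES1 the closest was CCNL1 (0.824), and for HEY1 it was C1orf109 (0.736). The libraries share 4 tables and their groups, and the libraries labelled KIF20A OE enter each value, so these are descriptions. Between members, r ran from -0.607, for JAG1 with HEY2, to 0.708, for NOTCH3 with JAG2. It was -0.601 for NOTCH2 with NOTCH3.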

How the data were processed

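RNA-Seq of 24 libraries was analyzed from 4 tables of values per gene. According to the labels, poly-A stranded libraries were made, and the submitters' processing notes name GRCh38, HISAT2 2.0.5 and featureCounts 1.5.0-p3. The study's text names DESeq2 for its own analysis. The authors deposited TPM for Hs578T and HCC70 and CPM for the overexpression experiment. The deposited values of the depletion experiment are named CPM by the authors, but their columns sum to 977394 to 1028621, and they were used as a signal, reads divided by 1 factor per library. The number of per-sample columns left unused was 0. Column names of the sorted tables were matched to the titles.

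Values within 0.01 of a whole number of reads came from recovery for 99.995% of Hs578T genes and 100% of those in the other tables; 1 gene, FN1 in Hs578T, was filled from its length in the other TPM table. The reads of 342 Hs578T and 393 HCC70 genes were then multiplied by a whole factor, where the length implied by the other TPM table called for it. Recovered reads of 1 to 20 were even in 58.5% to 71.0% of cases in both MDA-MB-231 tables and in about 40% in the sorted lines, so mates may have been counted singly in the former, and counting intervals may then be too narrow.

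Genes with a mean of at least 1 were tested by limma 3.58.1 (R 4.3.3) with a trend, on log2(value + 1), two-sided, within each comparison. The 12 sorted libraries were fitted together for the interaction. The scripts were tested on simulated data that gave every gene and table the same spread setting, unlike these libraries. Alternatives were a pseudocount of 0.1, no minimum or one of 5, the median of ratios, edgeR 4.0.16 quasi-likelihood and DESeq2 1.42.0 on recovered reads, a replicate block, and each library left out.

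The members, the pathway list and the markers were chosen with earlier results of these data known. Named were the 10 members, KIF20A, markers, up to 5 called pathway genes per direction and comparison, and the 3 genes most like a member. RBPJ, SPEN, TLE3 and ADAM10, outside that rule, were chosen after their values were seen. Locations came from GENCODE 44, which may differ from the authors' annotation, and promoters from RefSeq GRCh38.p14, where DLL1 and HEY1 were not searched. Python 3.11.15, numpy 2.4.6, pandas 2.3.3 and matplotlib 3.10.9 were used.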

Additional observations from a re-analysis of the deposited data

Results flagged for a closer look

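The effect of the sort on NOTCH2 differed between the cell lines by 0.377 (log2, HCC70 minus Hs578T, SE 0.078, limma adjusted p = 0.0169). In HCC70 all 3 BCSC libraries were above all 3 non-BCSC libraries, and in Hs578T the fractions overlapped. The difference was not called without HCC70 BCSC replicate 1, without Hs578T non-BCSC replicate 2 or with a replicate block.

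The effect on NOTCH1 differed by -0.716 (SE 0.22, limma adjusted p = 0.0663), since every BCSC library was above every non-BCSC library in Hs578T and below in HCC70. It did not pass the test over all genes and passed without HCC70 non-BCSC replicate 3 or without Hs578T BCSC replicate 3. Cell line and batch label cannot be told apart in both results.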

How the results depend on the processing

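In the comparison of libraries labelled KIF20A OE with EV, the 10 members kept direction and call in all 130 fits of an alternative. Of the 269 fits in the other comparisons, 250 gave the same direction and side of the threshold. In Hs578T the count of members called, 0, was 1 with the median of ratios or edgeR and 2 with DESeq2, and 0 after any 1 library was dropped. In HCC70 the count of 1 was 2 with edgeR, 0 with a replicate block and 0 to 1 with each library left out. The interaction's count of 1 was 0 with a replicate block and 0 to 2 with each library left out. The pathway count in Hs578T, 3, was 5 with DESeq2, 6 with edgeR, 5 with the median of ratios, 1 with a replicate block and 1 to 3 with each library left out. That in HCC70, 3, was 7 with DESeq2, 5 with edgeR, 1 with a replicate block and 0 to 3 with each library left out. In the depletion experiment the pathway count was 0 to 1, where PSENEN was called without sgCtrl replicate 3. The causes were not tested, beyond the fewer samples of fits that leave out a library.

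Direction turned only with a library left out, for values near 0. Ranges were -0.12 to 0.002 for NOTCH2 and -0.064 to 0.028 for HEY1 in Hs578T, -0.004 to 0.14 for HES1 and -0.11 to 0.015 for HEY1 in HCC70, and -0.1 to 0.13 for NOTCH1 and -0.32 to 0.024 for JAG2 in the depletion experiment.

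Samples with the same replicate number did not deviate together (correlations of -0.161 to 0.185), so the numbers did not pair the samples. With the replicate block, limma called 0 members in Hs578T, 0 in HCC70, 0 in the depletion experiment and 10 between the libraries labelled KIF20A OE and EV, and over all genes 669, 128, 0 and 10545 in place of 953, 374, 0 and 10634. All-gene counts under other settings ran from 343 to 1644 (Hs578T), 32 to 1190 (HCC70), 0 to 144 (KIF20A sg) and 8431 to 13255 (labelled KIF20A OE). In the latter the split of higher to lower calls was 7055 to 3579, and 5129 to 5007 with the median of ratios. Low counts kept NOTCH4, DLL1, HEY1 and HEY2 in the depletion experiment, NOTCH4, JAG2 and DLL1 in Hs578T and NOTCH4 and DLL1 in HCC70 out of the test.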
